A study of Homo sapiens and Mus musculus with 7 samples.

Results

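The genes described here mark the mesenchymal and the epithelial state of a cell. They were 43 genes, 29 mesenchymal and matrix genes and 14 epithelial genes, chosen with earlier results of these data known. The human array held 19775 genes that had a probe set of their own. A probe set, the group of short probes that measures a transcript on an Affymetrix array, was assigned to a member when its only annotated gene symbol was that gene. In mouse the same symbols found 42 of the 43 members among 18193 genes, and LOXL2 was the member without a mouse value. Total RNA of 7 samples was measured, 1 array per sample. HeyA8, a human ovarian cancer cell line, gave 3 arrays: a control carrying the empty vector pLKO, and lines in which FAS was stably knocked down by shRNA4 or by shRNA6. HepG2, a human liver cancer cell line, gave 2 arrays, pLKO and shRNA6. Liver of wild-type and of Fas knockout male C57/BL6 mice aged 2 months gave 1 array each. FAS encodes CD95, the receptor for Fas ligand. Whether a line is 1 clone, and how many animals gave each RNA, the sources used here do not say. The labels also call the knockdown lines knock-out, but FAS signal remained on all knockdown arrays.

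Epithelial cells are held together by E-cadherin, by tight junctions built from claudins and occludin, and by desmosomes anchored to keratin filaments. Mesenchymal cells carry vimentin filaments instead, secrete and crosslink collagen-rich matrix, and read it through integrins. Transcription factors of the SNAIL, ZEB and TWIST families repress E-cadherin and other junction genes by binding short E-box sequences, and many carcinoma cells hold intermediate mixtures of both programmes.

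Promoter sequence is shown for 4 places that the results below return to. RefSeq windows of GRCh38.p14, covering the 250 bases before a gene's start site, were given for 23 of the 43 members. COL4A1 and COL4A2, the chains of the main basement membrane collagen, stand head to head on chromosome 13. Their start sites at positions 110307157 and 110307284 are 127 bases apart, on opposite strands. The sequence between them, chr13:110307158-110307283 on the forward strand, is printed because both genes read out from it. Capitals mark a CCAAT and a GGGCGG motif.
COL4A1 and COL4A2: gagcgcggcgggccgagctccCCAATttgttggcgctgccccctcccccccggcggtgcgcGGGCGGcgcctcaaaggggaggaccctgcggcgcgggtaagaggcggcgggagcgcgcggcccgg
DSP, OCLN and ZEB1 are printed because they hold CAGGTG, the E-box that ZEB and SNAIL factors recognise. Capitals mark this motif alone. The DSP stretch is chr6:7541471-7541670, the 200 bases before the start.
DSP: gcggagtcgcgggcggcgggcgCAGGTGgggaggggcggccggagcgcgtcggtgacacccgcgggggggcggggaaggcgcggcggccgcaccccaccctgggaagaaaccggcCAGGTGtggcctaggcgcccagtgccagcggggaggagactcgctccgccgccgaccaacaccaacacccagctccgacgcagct
The OCLN stretch is chr5:69492487-69492546, the last 60 bases before the start. The ZEB1 stretch is chr10:31318317-31318416, the last 100 bases before the start. All 3 genes lie on the forward strand. OCLN and ZEB1 each have another annotated start with a match, and 1 start is shown.
OCLN: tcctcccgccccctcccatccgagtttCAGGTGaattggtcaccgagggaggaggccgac
ZEB1: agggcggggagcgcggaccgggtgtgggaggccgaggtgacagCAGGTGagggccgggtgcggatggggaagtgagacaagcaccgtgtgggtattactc

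Motifs were searched in the 250 bases before the start, on both strands. The E-box was searched as CAGGTG, with CACCTG for the other strand. It was found for 2 of the 17 mesenchymal members with a window, LOX and ZEB1. It was found for 2 of the 6 epithelial members with a window, DSP and OCLN. Over all genes with a window the share was 20.6% of 27305, and over all windows 17.5% of 35097. The CCAAT box, with ATTGG for the other strand, was found for 6 of 17 mesenchymal and 1 of 6 epithelial members, beside 37.0% of all genes. The GC box GGGCGG, with CCGCCC for the other strand, was found for 14 of 17 and 5 of 6, beside 46.2% of all genes. Matches of different motifs can share end letters, and a match describes the letters of the window only.

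The knockdown was checked on FAS itself. Its most intense probe set gave signals of 2104 with pLKO, 1184 with shRNA4 and 856 with shRNA6 in HeyA8, and of 1087 with pLKO and 631 with shRNA6 in HepG2. Mouse Fas was at 560 in wild-type liver and at 169 in knockout liver, 30.3% of the wild-type signal. Deposited signals are array intensities on a linear scale, with array medians of 57.8 to 63.4 in the human table and 75.2 to 79.9 in the mouse table. HepG2 carried the hepatocyte markers of its label, and the ovarian or Muellerian markers set the lines apart less clearly. All 10 measured hepatocyte markers were above the median on both HepG2 arrays, and 1 or 2 of the 10 were on the HeyA8 arrays. Of 6 ovarian or Muellerian markers 4 were above the median on each HeyA8 array, but so were 3 on HepG2 pLKO and 2 on HepG2 shRNA6. PAX8, a Muellerian transcription factor, was at 2860, 3047 and 3037 in HeyA8. In HepG2 it was at 593 and 604, also above the median. MUC16 and EMX2 of the same marker list were below the median on all 5 arrays. The 3'/5' signal ratio of beta-actin was 1.92 to 2.17 and that of GAPDH 0.915 to 1.01 on the human arrays.

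The first comparison set the level of each member in HeyA8 against HepG2. HeyA8 carried the mesenchymal transcription factors, vimentin and basement membrane collagen, and HepG2 had more E-cadherin, EPCAM, CLDN1, CLDN4, occludin, desmoplakin and keratin 19. The separation was not complete in either direction. EPCAM, CLDN1, occludin and desmoplakin were above the median on every HeyA8 array as well, KRT7 was higher in HeyA8, and TIMP3, TAGLN and TGFBI were higher in HepG2. A gene was kept when at least 1 array was above its own median, which left 35 members (24 mesenchymal, 11 epithelial) and 13936 genes in all. Of these 35, 8 were kept through arrays of 1 line only, so that a difference between the lines was built into their selection. They were TWIST1, ZEB2, COL4A1, COL4A2 and COL6A2 through HeyA8, and COL5A1, CDH1 and CLDN4 through HepG2. A limma fit of cell line and knockdown on log2(signal + 12.6) called 8079 genes, 58.0% of all genes tested, at an adjusted p under 0.05. Of the 24 mesenchymal members 16 were higher in HeyA8 and 6 in HepG2, where 28.0% and 30.0% of all genes were. Of the 11 epithelial members 9 were higher in HepG2 and 1 in HeyA8. The median difference, HeyA8 minus HepG2 on the log2 scale, was 2.01 over the mesenchymal members, -2.70 over the epithelial members and -0.05 over all genes. The arrays of the lines did not overlap for 32 of the 35 members, beside 73.3% of all genes. The arrays of a line differ in hairpin and are not labelled as separate cultures of 1 condition, so p-values here measure only the spread among these samples, and that spread may be technical.

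**Figure D1:**
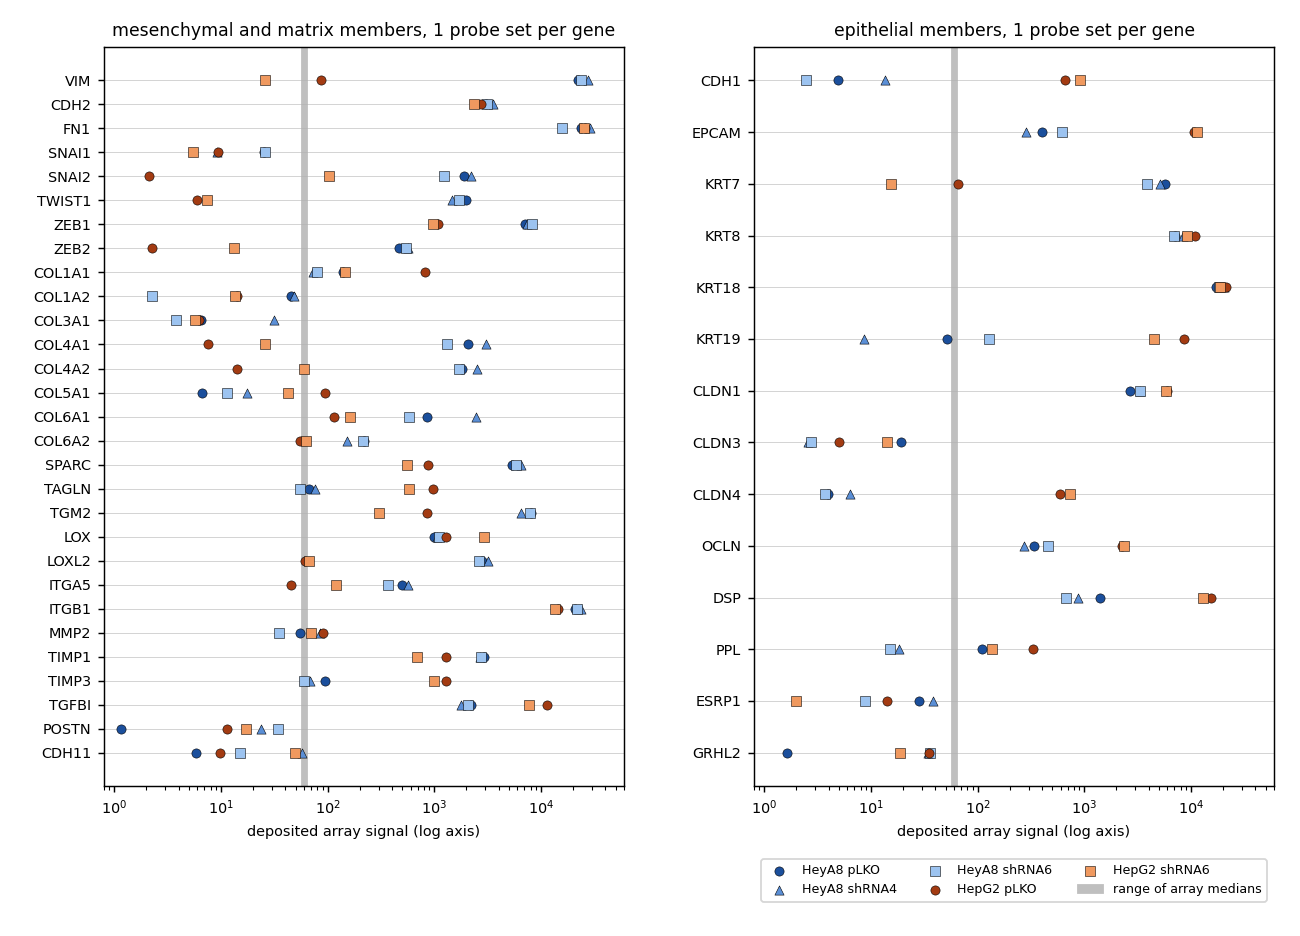
Deposited signal of the 43 members on the 5 human arrays, 1 probe set per gene, on a log axis; circles are pLKO controls, triangles shRNA4 and squares shRNA6, HeyA8 in blue and HepG2 in orange, and the grey band spans the array medians of 57.8 to 63.4. VIM, TWIST1 and KRT7 stand far to the right in HeyA8, and CDH1, EPCAM, KRT19, CLDN4 and DSP in HepG2.

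VIM, the intermediate filament of mesenchymal cells, had the largest difference among the members. Its signal was 22006, 27515 and 23625 in HeyA8 with pLKO, shRNA4 and shRNA6, and 87.2 and 26.1 in HepG2 with pLKO and shRNA6. The limma difference was 8.69 ± 0.30 (SE) on the log2 scale, adjusted p = 2.11e-07, and the arrays of the lines were far apart. CDH2, the N-cadherin that neural and mesenchymal cells use in place of E-cadherin, was almost level, at 3022, 3570 and 3117 in HeyA8 and 2743 and 2365 in HepG2. Its difference of 0.34 ± 0.12 had an adjusted p of 0.0398 in limma, and the call was lost in 3 of the 5 fits that leave out an array: without HeyA8 shRNA4, HeyA8 shRNA6 or HepG2 shRNA6. HepG2 thus held E-cadherin and N-cadherin together above the array median, and HeyA8 held N-cadherin without E-cadherin. Both were also above the median in mouse liver, Cdh2 at 4040 in wild type and 4278 in the knockout, and Cdh1 at 2168 and 2985. Both cadherins in HepG2 are therefore not read as a mesenchymal trait.

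TAGLN, an actin-binding protein of smooth muscle and myofibroblasts, ran the other way. It was at 66.6, 75.3 and 54.5 in HeyA8 and at 970 and 578 in HepG2, a limma difference of -3.24 ± 0.27 (adjusted p = 2.24e-05). Of its 3 kept probe sets 2 were called higher in HepG2, and the remaining one differed by 0.06.

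The transcription factors of the mesenchymal state were nearly all on the HeyA8 side. TWIST1, a basic helix-loop-helix factor, was at 2000, 1468 and 1714 in HeyA8 and at 5.91 and 7.46 in HepG2. Its difference was 6.51 ± 0.21 (limma, adjusted p = 1.61e-07). SNAI2, also called SLUG, is a zinc finger repressor of E-cadherin with 1 probe set on the array. It was at 1911, 2210 and 1228 in HeyA8 and at 2.12 with pLKO and 104 with shRNA6 in HepG2. The lines did not overlap, and the difference was 5.21 ± 0.62 (limma, adjusted p = 0.000173); it lay between 3.83 and 7.03 when single arrays were left out. ZEB2, a zinc finger repressor of junction genes, was at 466, 562 and 539 in HeyA8 and at 2.24 and 13.3 in HepG2, a difference of 4.69 ± 0.28 (limma, adjusted p = 3.31e-06). Its relative ZEB1 was present in both lines, at 7145, 7427 and 8199 in HeyA8 and 1076 and 981 in HepG2, and differed by 2.87 (limma, adjusted p = 2.86e-07). All 4 ZEB1 probe sets and all 3 kept ZEB2 probe sets were called in the same direction. SNAI1, the founding SNAIL repressor, stayed below the median on all 5 arrays, between 5.42 and 25.8.

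The collagens among the members are described by type. COL4A1 was at 2063, 3059 and 1302 in HeyA8 and at 7.54 and 25.9 in HepG2, a difference of 6.13 ± 0.38 (limma, adjusted p = 4.08e-06). COL4A2 was at 1829, 2495 and 1716 in HeyA8 and at 14.2 and 60.4 in HepG2, a difference of 5.38 ± 0.30 (limma, adjusted p = 2.53e-06). Both genes of the head-to-head pair were thus high on the same 3 arrays and low on the same 2. The microfibrillar collagens COL6A1 and COL6A2 were also higher in HeyA8, by 2.79 and 1.54. The COL6A1 call was lost without the HepG2 shRNA6 array, at an adjusted p of 0.0527 in limma, and held for 2 of its 4 kept probe sets.

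Of the fibrillar collagens among the members COL1A1 alone was above the median on all 5 arrays. COL1A2 and COL3A1, partners of COL1A1 in interstitial fibres, were below the median on every array, at most 48.4 and 31.2. COL5A1, which nucleates those fibres, was above the median on the HepG2 pLKO array alone, at 94.8, with 42.3 on the other HepG2 array and 6.68 to 17.6 in HeyA8. Its call in favour of HepG2 (-1.65, limma adjusted p = 0.0404) was kept in 1 of the 5 fits that leave out an array. COL1A1 was called higher in HepG2 by its most intense probe set, at -1.52 ± 0.37 (limma, adjusted p = 0.0086). The call was lost without either pLKO array, at -0.82, and was not shared by its other probe sets, which are given with the knockdown results.

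Matrix crosslinking enzymes were on both sides. LOXL2, a lysyl oxidase relative, was at 2823, 3176 and 2632 in HeyA8 and at 61.5 and 67.2 in HepG2, a difference of 5.22 ± 0.15 (limma, adjusted p = 8.96e-08). TGM2, tissue transglutaminase, was at 8055, 6552 and 7896 in HeyA8 and at 854 and 302 in HepG2. Its difference was 3.96 ± 0.26 (limma, adjusted p = 5.48e-06), and all 4 of its probe sets were called in that direction. LOX, lysyl oxidase itself, was higher in HepG2, at 1293 and 2943 against 1003, 1055 and 1103 in HeyA8. Its difference was -0.98 (limma, adjusted p = 0.00568), and it was -0.36 and not called without the HepG2 shRNA6 array.

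Among matrix glycoproteins SPARC, which binds collagen, was at 5342, 6464 and 5771 in HeyA8 and at 867 and 551 in HepG2. Its difference was 3.08 ± 0.18 (limma, adjusted p = 3.1e-06). FN1, fibronectin, was among the most intense signals of both lines, at 23546, 28602 and 15664 in HeyA8 and 26004 and 25455 in HepG2. The HeyA8 arrays spread on both sides of HepG2, and the difference of -0.21 was not called (limma, adjusted p = 0.432). Without the HeyA8 shRNA4 array it was -0.42 and was called. TGFBI, an adhesion protein induced by TGF-beta, differed by -2.15, higher in HepG2, at 11449 and 7743 against 1790 to 2228. POSTN, periostin, was below the median on all 5 arrays.

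TIMP3, a matrix-bound inhibitor of metalloproteinases, was at 94.0, 67.7 and 60.6 in HeyA8 and at 1285 and 994 in HepG2. Its difference was -3.67 ± 0.20 (limma, adjusted p = 2.4e-06), with all 4 probe sets called in the same direction. TIMP1, a soluble inhibitor of the same family, was higher in HeyA8 by 1.63. MMP2, a gelatinase, was near the array median throughout, between 35.2 and 89.9, and was not called. The integrin chains ITGA5 and ITGB1, which together form the fibronectin receptor, were higher in HeyA8 by 2.39 and 0.66. CDH11, a mesenchymal cadherin, was below the median on all 5 arrays.

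The epithelial adhesion genes were the mirror of the transcription factors. CDH1, E-cadherin, was at 4.95, 13.4 and 2.48 in HeyA8 and at 655 and 914 in HepG2, a difference of -5.42 ± 0.39 (limma, adjusted p = 9.52e-06). The HeyA8 signals were below the array median, where the pseudocount makes up much of the value. EPCAM, a surface adhesion protein of simple epithelia, was above the median in both lines, at 405, 281 and 619 in HeyA8 and 10621 and 11281 in HepG2. Its difference was -4.69 ± 0.28 (limma, adjusted p = 3.48e-06). DSP, desmoplakin, which ties desmosomes to keratin, was at 1392, 881 and 671 in HeyA8 and at 15477 and 12961 in HepG2. Its difference was -3.80 ± 0.17 (limma, adjusted p = 6.9e-07), so HeyA8 kept between 4.72% and 9.79% of the HepG2 mean. PPL, periplakin, differed by -1.97, higher in HepG2, a call that was lost without the HepG2 shRNA6 array.

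Among tight junction genes CLDN4 was at 3.92, 6.30 and 3.69 in HeyA8 and at 586 and 740 in HepG2, a difference of -5.32 ± 0.37 (limma, adjusted p = 7.74e-06). OCLN, occludin, differed by -2.70 with all 4 probe sets called higher in HepG2, and CLDN1 by -0.94 with both. CLDN3 was below the median on all arrays by the probe set that stands for it, and its other, cross-hybridising probe set passed it on the HepG2 shRNA6 array alone. The regulators ESRP1, an epithelial splicing factor, and GRHL2, an epithelial transcription factor, were below the median on all 5 arrays, HepG2 included.

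The keratins did not move as a family. KRT19 was at 51.7, 8.58 and 128 in HeyA8 and at 8521 and 4524 in HepG2, a difference of -6.67 ± 0.67 (limma, adjusted p = 6.68e-05). KRT7, its neighbour in simple ductal epithelia, was at 5686, 5083 and 3873 in HeyA8 and at 65.4 and 15.4 in HepG2, a difference of 6.83 ± 0.25 (limma, adjusted p = 2.95e-07). Only 1 of the 3 kept KRT7 probe sets was called, and the other two differed by 0.23 and 0.84 in the same direction. KRT8 and KRT18, the keratin pair of simple epithelia, were high in both lines. KRT18 lay between 17240 and 21446 and was not called, and KRT8 differed by -0.40, higher in HepG2, a call kept in 2 of the 5 fits that leave out an array. Both are measured by probe sets marked as cross-hybridising, so related transcripts may add to their signal.

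**Figure D2:**
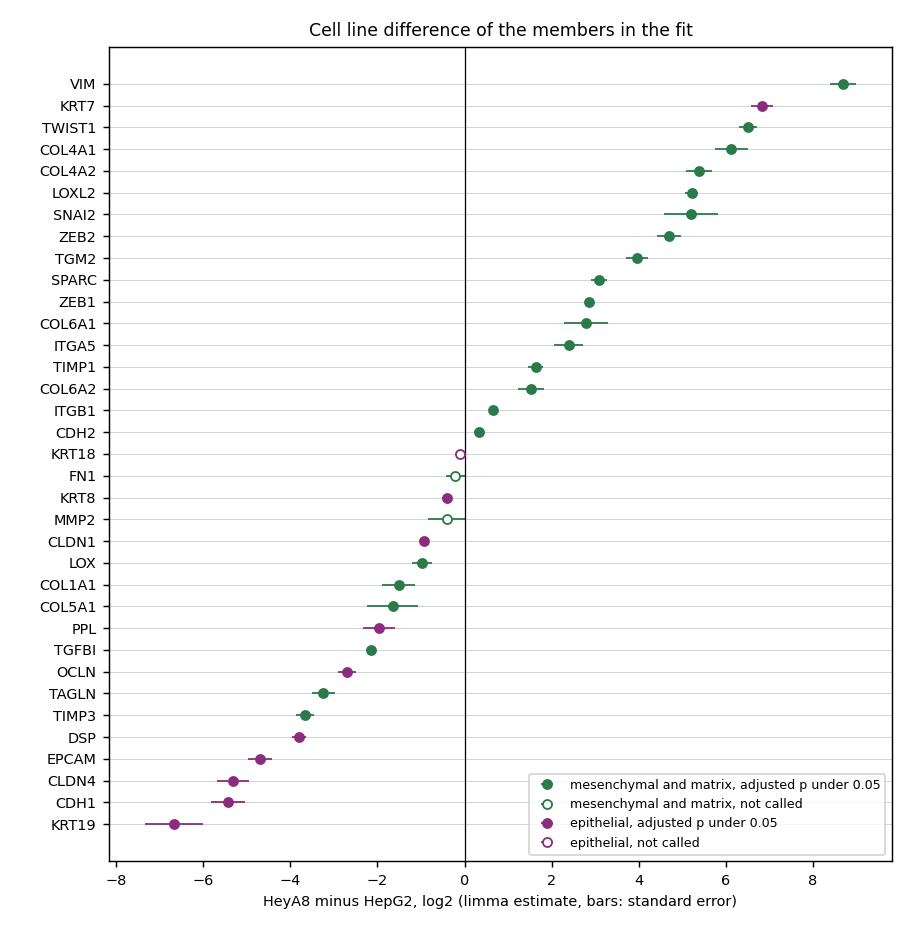
Difference between HeyA8 and HepG2 for the 35 members in the limma fit, on the log2 scale with standard errors as bars; green marks mesenchymal and matrix members, purple epithelial members, and open symbols are not called. VIM at 8.69 and KRT19 at -6.67 are the ends of the range, and KRT7 stands alone among the epithelial members on the HeyA8 side.

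Members past 3 on the log2 scale numbered 10 on the HeyA8 side (9 mesenchymal and KRT7) and 7 on the HepG2 side (5 epithelial, TAGLN and TIMP3), where 5.22% and 4.97% of all genes were. Among them TWIST1, ZEB2, COL4A1, COL4A2, CDH1 and CLDN4 had been kept only through the line where they were higher. Of the 32 members called, 25 were called in every fit that leaves out an array. Of the 18 called members with at least 2 kept probe sets, 12 had all of them called in the same direction. The exceptions were CDH2, COL1A1, COL6A1, TAGLN, ITGB1 and KRT7, and no probe set was called the opposite way. Probe sets that were not kept are outside this count. LOXL2, COL5A1, CDH1, KRT19 and CLDN4 had 1 kept probe set each, and their other probe sets were below the median on all 5 arrays. The share over all genes was not counted for either check, so neither is read as particular to the members.

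Related genes outside the membership were counted in the same fit, where 28.0% of all genes were higher in HeyA8 and 30.0% in HepG2. Of 23 kept genes of a second epithelial list 15 were higher in HepG2 and 1 in HeyA8. The largest differences were ERBB3 at -7.55, a receptor of the EGF receptor family, MAL2 at -7.48, MARVELD3 at -4.02, a tight junction protein, and ELF3 at -3.70, an epithelial ETS factor. Of 41 kept genes of a second mesenchymal and matrix list 20 were higher in HeyA8 and 15 in HepG2. The largest were the hyaluronan receptor CD44 at 9.46, caveolin CAV1 at 8.95, fibrillin FBN2 at 7.81 and TWIST2 at 6.61. Of 17 kept genes of TGF-beta signalling 8 were higher in HeyA8 and 4 in HepG2, with PMEPA1 at 3.54 and LTBP2 at 3.25 in HeyA8.

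The second comparison set each knockdown against the control of its own line. No member was called in limma, either for the effect common to all knockdown arrays or for its difference between the lines, and 0.0% of all 13936 genes were in either fit. At an unadjusted p under 0.05 the common effect held 9 of the 35 members, where 4.08% of all genes were, and the difference between the lines 10, where 4.4% were. All adjusted p of the members in limma were at least 0.991. With 1 array per group the single comparisons have no replicate check, and members are described by size, at least 2-fold from the control on the scale of log2(signal + 12.6). Both HeyA8 comparisons share the pLKO control array.

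In HeyA8 few members were far from the control with either hairpin. With shRNA4, 2 of 31 kept members were at least 2-fold from the control, beside 4.76% of all genes: COL6A1 above it and PPL below it, where 2.37% and 2.38% of all genes were. With shRNA6 it was 3 of 31, beside 4.22%: KRT19 above it and PPL and DSP below it, where 2.02% and 2.21% were. PPL was kept in HeyA8 through the control array alone, and KRT19 through the shRNA6 array alone, so their directions were built into their selection. The median log2 ratio of the mesenchymal members was 0.19 with shRNA4 and -0.09 with shRNA6, and that of the epithelial members -0.22 and 0.07. Medians of all genes were 0.03 and 0.01. Of the kept mesenchymal members 16 were above the control and 7 below with shRNA4, and 7 above and 15 below with shRNA6.

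COL6A1 was the mesenchymal member farthest from its control in HeyA8, at 858 with pLKO, 2480 with shRNA4 and 583 with shRNA6. Its log2 ratios were 1.52 with shRNA4 and -0.55 with shRNA6. Its other 3 kept probe sets had ratios of 1.65, 1.44 and 0.49 with shRNA4, so all 4 lay above the control. The last of them, 214200_s_at, was kept through the shRNA4 array alone, so its place above the control was built into its selection. With shRNA6 these other 3 probe sets were at 0.52, -0.67 and -0.92, without one direction. Of the COL6A2 probe sets the more intense was at -0.51 with shRNA4 and -0.03 with shRNA6, and the other at 1.31 and -0.34. The type IV pair differed between the hairpins as well, COL4A1 at 0.57 with shRNA4 and -0.66 with shRNA6, and COL4A2 at 0.45 and -0.09. FN1 had log2 ratios of 0.28 and -0.59. Its 7 probe sets all lay above the control with shRNA4, by 0.28 to 0.53, and all below it with shRNA6, by -0.23 to -1.36. The hairpins thus stood on opposite sides of their shared control for FN1, COL4A1 and COL4A2, and hairpin, culture and array cannot be told apart.

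PPL, a plakin of the cornified envelope and desmosome, was below its control in all 3 knockdown comparisons. Its signal was 111, 18.3 and 15.2 in HeyA8 with pLKO, shRNA4 and shRNA6, and 329 and 135 in HepG2 with pLKO and shRNA6. Log2 ratios were -2.00, -2.15 and -1.20, and both HeyA8 knockdown signals were below the array median. In HeyA8 PPL was thus kept through the pLKO array alone. Both HeyA8 falls were built into that selection and share this 1 control signal, so they do not repeat each other. The common effect was -1.70 ± 0.36 with an unadjusted p of 0.00173 and an adjusted p of 0.991 in limma. DSP lay below the control each time, at log2 ratios of -0.65 with shRNA4, -1.04 with shRNA6 and -0.26 in HepG2. Its common effect of -0.59 was not called (limma, adjusted p = 0.991). PPL and DSP have 1 probe set each.

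KRT19 went opposite ways with the HeyA8 hairpins, from 51.7 to 8.58 with shRNA4 and to 128 with shRNA6, log2 ratios of -1.60 and 1.13, the first between signals below the median. These signals were 0.793%, 0.132% and 1.97% of the HepG2 mean. EPCAM, at 3.70%, 2.57% and 5.65% of the HepG2 mean, was also lowest with shRNA4 and highest with shRNA6. The summed hepatocyte markers on the same HeyA8 arrays were 192, 282 and 346, or 0.0987%, 0.146% and 0.178% of the HepG2 sum, in another order. Their part in the KRT19 and EPCAM signals was not tested.

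**Figure D3:**
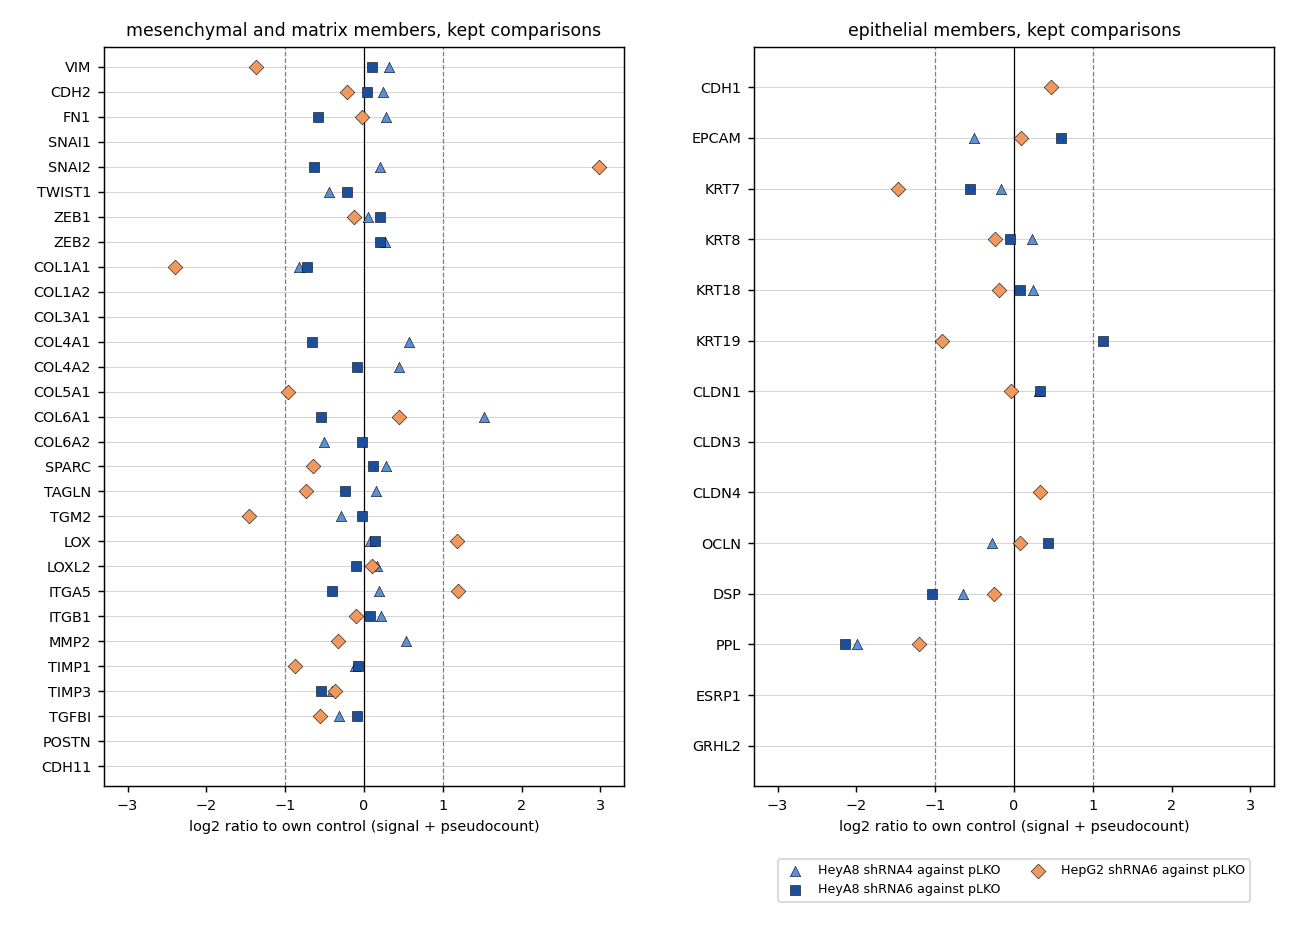
Log2 ratio of each member to the control of its own line, for comparisons in which the member was kept; triangles and squares are HeyA8 with shRNA4 and shRNA6, diamonds HepG2 with shRNA6, and dashed lines mark a 2-fold difference. PPL lies past the left dashed line in all 3 comparisons, and SNAI2 at 2.98 and COL1A1 at -2.40 are the outermost diamonds.

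In HepG2 8 of 30 kept members were at least 2-fold from the control, beside 5.22% of all genes: SNAI2, ITGA5 and LOX above it, where 2.65% were, and COL1A1, KRT7, TGM2, VIM and PPL below it, where 2.56% were. Only COL1A1, TGM2 and LOX of these had a signal above the 75th percentile of an array, and the others rest on dim signals. SNAI2 and ITGA5 were kept through the knockdown array alone, and VIM and KRT7 through the control array alone. The direction of these members was thus built into their selection, and the count is not read as a result about the members. The mesenchymal median was -0.33 with 14 of 19 kept members below the control, and the epithelial median -0.19 with 7 of 11 below; the median of all genes was -0.01. Scaling the arrays to equal medians lowered the median HepG2 ratio of all genes by 0.11. In the second mesenchymal and matrix list 23 of 28 kept genes were below the control, with a median of -0.28 and none at 2-fold.

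SNAI2 was at 2.12 in the HepG2 control and at 104 with shRNA6, a log2 ratio of 2.98, against 0.21 and -0.63 in HeyA8. The HepG2 knockdown signal was 5.82% of the HeyA8 mean and that of the control 0.119%, so the level stayed far below that of HeyA8. The difference of the knockdown effect, HepG2 minus HeyA8, was 3.20 ± 0.58 with an unadjusted p of 0.0017 and an adjusted p of 0.999 in limma. Of the 10 members past 3 on the HeyA8 side, 6 were also higher on the HepG2 knockdown array than on its control, and 4 were lower. As shares of the HeyA8 mean, from control to knockdown, ZEB2 went from 0.429% to 2.55%, COL4A1 from 0.352% to 1.21% and COL4A2 from 0.703% to 3.00%. TWIST1 went from 0.342% to 0.432% and LOXL2 from 2.14% to 2.34%. VIM went the other way, from 0.358% to 0.107%, as did KRT7, from 1.34% to 0.316%, SPARC, from 14.8% to 9.40%, and TGM2, from 11.4% to 4.03%. The 4 genes of the second mesenchymal list with the largest difference toward HeyA8 were higher with shRNA6 in HepG2 too. CAV1 was at 4.59 and 41.9, TWIST2 at 3.90 and 29.6, FBN2 at 2.44 and 21.5 and CD44 at 3.18 and 16.1. All 4, like ZEB2, COL4A1 and COL4A2, were below the median on both HepG2 arrays, and their part in the SNAI2 signal was not tested. Some other genes of that list that were high in HeyA8 were lower with shRNA6 in HepG2, and 23 of its 28 kept genes were below the control. CDH1, a target that SNAI2 represses, was at 655 and 914, a log2 ratio of 0.47.

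COL1A1, a chain of type I collagen, was measured by 5 probe sets. The most intense, 1556499_s_at, was at 141, 73.5 and 79.9 in HeyA8 and at 820 and 145 in HepG2, with log2 ratios of -0.83, -0.73 and -2.40. The probe set 202310_s_at was at 38.1, 17.8 and 5.74 in HeyA8 and at 96.4 and 2.58 in HepG2. The probe set 202312_s_at was at 72.0, 58.1 and 20.1 in HeyA8 and at 20.0 and 29.8 in HepG2. The cross-hybridising 217430_x_at was at 215, 204 and 172 in HeyA8 and at 92.6 and 146 in HepG2, and 202311_s_at stayed below the median on all 5 arrays, at 2.62, 17.4 and 1.43 in HeyA8 and 47.7 and 22.2 in HepG2. In HepG2 the log2 ratios of the 4 kept probe sets were thus -2.40, -2.85, 0.38 and 0.59, without one direction. In HeyA8 all 4 lay below the control with both hairpins. Of these, 202312_s_at was kept through the HeyA8 control alone and 202310_s_at through the HepG2 control alone. A lower knockdown signal in that line was thus built into their selection. The unkept 202311_s_at had log2 ratios of 0.98 with shRNA4 and -0.12 with shRNA6 in HeyA8. The common effect of the most intense probe set was -1.48 ± 0.37 with an unadjusted p of 0.00437 and an adjusted p of 0.991 in limma.

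**Figure D4:**
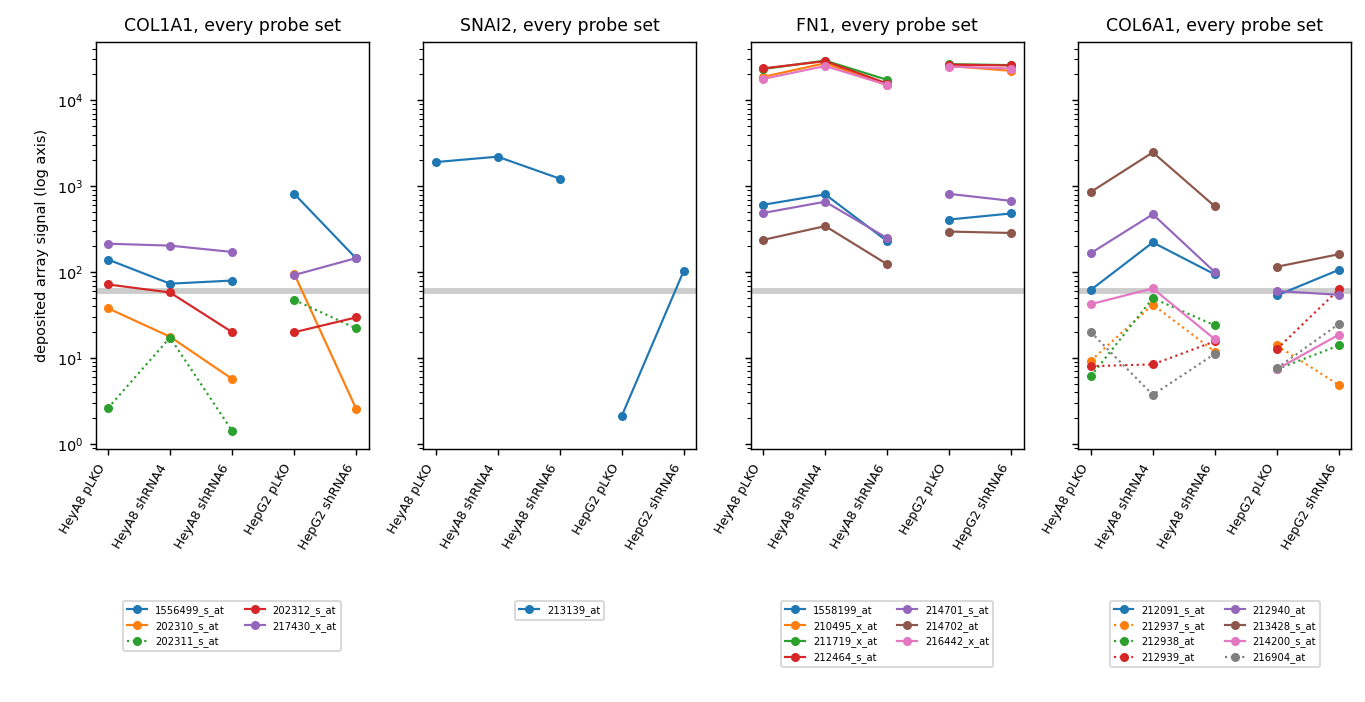
Signal of every probe set of COL1A1, SNAI2, FN1 and COL6A1 on the 5 human arrays, on a log axis; lines join arrays of 1 line, dotted lines are probe sets below the median on all arrays, and the grey band spans the array medians. Within HeyA8 the 7 FN1 probe sets all peak at shRNA4, while the COL1A1 probe sets cross in HepG2.

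LOX was at 1293 and 2943 in HepG2 and at 1003, 1055 and 1103 in HeyA8, a log2 ratio of 1.18 in HepG2 beside 0.07 and 0.14 in HeyA8. Its other probe sets gave 1.14 and 0.16 in HepG2. ITGA5 was at 45.3 and 119 in HepG2, a log2 ratio of 1.19 from a control below the median. TGM2 was at 854 and 302, a log2 ratio of -1.46. Its other probe sets gave -0.68, -0.49 and 1.06, the last from signals below the median in HepG2. VIM was at 87.2 and 26.1 and KRT7 at 65.4 and 15.4, log2 ratios of -1.37 and -1.48 that start near the array median. KRT19, the bright keratin of HepG2, was at 8521 and 4524, a log2 ratio of -0.91, and EPCAM, CDH1, CLDN4 and OCLN were between 0.07 and 0.47. Of the kept adhesion and junction members, PPL was the one past 2-fold in HepG2. The members just inside 2-fold in HepG2 were COL5A1 at -0.97, KRT19, and TIMP1 at -0.88, which was at 1277 and 688; the other kept members lay nearer to their control.

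Among TGF-beta signalling genes, whose pathway can drive matrix genes, 1 of 17 kept genes reached 2-fold in HeyA8, PMEPA1 at -1.29 with shRNA6, and none of 15 did in HepG2. PMEPA1, a feedback inhibitor induced by TGF-beta, was at 282, 302 and 108 in HeyA8.

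The third comparison was Fas knockout against wild-type mouse liver. In whole tissue these genes come from stellate cells, endothelium, bile ducts and hepatocytes, and fewer cells of a type cannot be told apart from less RNA per cell. Of 42 members 34 were kept, 22 mesenchymal and 12 epithelial, and 3 were at least 2-fold apart, beside 4.34% of all genes: Krt7 higher in the knockout, where 1.77% were, and Epcam and Col6a2 lower, where 2.57% were. Krt7 was kept through the knockout array alone, and Epcam and Col6a2 through the wild-type array alone, so their directions were built into their selection. Of the mesenchymal members 17 were lower and 5 higher in the knockout, with a median log2 ratio of -0.15, and of the epithelial members 5 were lower and 7 higher, with a median of 0.06. The median of all genes was -0.02.

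Col3a1, Col1a2 and Postn, below the median on all human arrays, were above it in both livers. Col3a1 was at 3483 in wild type and 2766 in the knockout, Col1a2 at 1102 and 984, and Postn at 1340 and 838, log2 ratios of -0.33, -0.16 and -0.66. Col1a1 was at 118 and 108, and its other probe set was at 17.6 and 6.48, below the median in both livers. Timp3 was at 880 and 566 and Zeb2 at 483 and 330, log2 ratios of -0.62 and -0.52. Col6a2 was at 159 and 57.4, a log2 ratio of -1.21, but its other probe set gave -0.15. Snai2 was at 243 and 259, and its other, cross-hybridising probe set was at 855 and 896. Twist1 was below the median in both livers.

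Among epithelial members Cdh1 was at 2168 and 2985, Cldn1 at 1270 and 1737, Krt8 at 5882 and 6691 and Krt18 at 6419 and 6422, all within 2-fold. Cldn3 and Grhl2, below the median in both human lines by the probe sets that stand for them, were above it in liver, at 2686 and 2654 and at 101 and 143. The other Grhl2 probe sets were below the median in both livers. Epcam was at 198 and 53.5, a log2 ratio of -1.56, while its other probe set gave 0.01. Krt7 was at 9.55 and 76.3, a log2 ratio of 1.69 that ends next to the array median. Ppl was at 201 and 219 and Dsp at 3831 and 3727, log2 ratios of 0.11 and -0.04. None of the 3 members past 2-fold had a signal above the 75th percentile of an array.

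Markers of the liver's cell types were summed on the same arrays. Hepatocyte markers gave 205750 in wild type and 211309 in the knockout, stellate cell markers 14972 and 13421, sinusoidal endothelium 10694 and 10453, Kupffer cells 22301 and 18212, and lymphocytes 942 and 783. The 5 measured cholangiocyte markers gave 402 and 237, with 2 and 1 above the median; Epcam, Krt7 and Krt19 belong to both that list and the members. The stellate and Kupffer sums were lower in the knockout, as were most matrix members, and their part in the result was not tested.

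**Figure D5:**
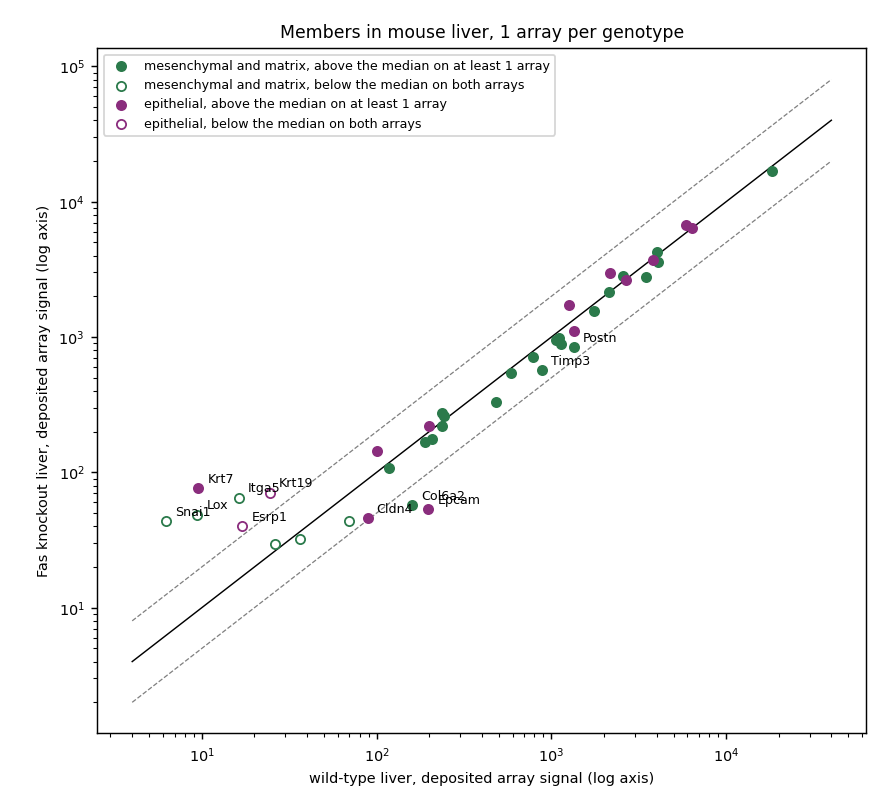
Signal of the 42 members in wild-type and Fas knockout mouse liver, 1 array each, on log axes; green marks mesenchymal and matrix members, purple epithelial members, open symbols are below the median on both arrays, the solid line marks equal signal and the dashed lines a 2-fold signal ratio. The brightest members lie close to the solid line, and the labelled ones farther out are dim, except Postn and Timp3.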

How the data were processed

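Signals were array intensities on a linear scale, 1 array per group, which the authors computed by MAS5, per the submitters' processing notes; the sources used here give no version. The 2% trimmed mean of the deposited values was 500.1 on human and 500.0 on mouse arrays, so they were scaled as a whole before deposit. After removal of control probe sets (62 and 64), symbols were taken from the array annotation (41091 of 54675 human probe sets with 1 symbol, 1801 with several, 11721 with none; 34945, 932 and 9160 of 45101 in mouse), and 41043 human symbols matched a RefSeq table with 0 differing. The probe set of highest mean signal stood for a gene, with _x_at probe sets used only where there was no other. From the deposited intensity log2(signal + c) was computed, with c the 25th percentile of a table (12.6 human, 20.6 mouse); the scale understates differences of dim genes. Genes with at least 1 compared array above its own median were kept, and no detection calls were used.

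limma 3.58.1 in R 4.3.3 fitted cell line and knockdown together over all 13936 genes (trended variance, 2 residual and 5.79 prior degrees of freedom, Benjamini-Hochberg), and a second fit added their interaction (1 residual degree of freedom, from the HeyA8 hairpins). The fit was tested on simulated data. Python 3.11.15 was used with matplotlib 3.10.9, scipy 1.17.1, pandas 2.3.3 and numpy 2.4.6. The members, lists and rules were chosen with earlier results of these data known. Named in full were members called with a cell line difference of at least 3 on the log2 scale, members at least 2-fold from their control, and all probe sets of COL1A1 and SNAI2; of other lists at most 4 genes were named. Alternatives were other pseudocounts, scalings, filters, probe set rules and size thresholds, a fit without the variance trend or without the cell line, and fits that leave out an array. Some genes of the lists are not reported here.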

Additional observations from a re-analysis of the deposited data

How the results depend on the processing

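Precision is limited by the number of arrays, 1 per group, and members near or below the array median have ratios that depend on the pseudocount. Each group holds 1 sample, so no pairing by replicate was possible. Knockdown and control were matched by line through the cell line term of the fit. Member counts in the cell line difference stayed within 1.5 times under every alternative run. Single calls were lost without the variance trend (CDH2, LOX, KRT8), without a filter (CDH2), with the mean of all probe sets (CDH2, COL1A1, COL6A1; COL5A1 was no longer kept) and with equal medians (KRT8). Over all genes the number higher in HeyA8 was 2274 with an added 2-fold threshold (3903 without it), and the number higher in HepG2 was 2475; leaving out single arrays gave 2761 to 3816 and 2684 to 4223 (4176 with all arrays), the lowest both without HepG2 shRNA6. The common knockdown effect called 2 genes, neither a member, with arrays scaled to equal medians, where the main setting called 0. Members at least 2-fold from the control numbered 2, 3 and 8 for HeyA8 shRNA4, HeyA8 shRNA6 and HepG2, and 3 in mouse liver. Without a filter on low values they numbered 8, 7, 10 and 7, and with the stricter filter 1, 1, 3 and 0. At 1.5-fold they numbered 4, 8, 13 and 6, and at 3-fold 1, 1, 2 and 1. The table median as pseudocount gave 1 with HeyA8 shRNA6, 4 in HepG2 and 1 in mouse liver, and the mean of all probe sets 1 with HeyA8 shRNA4, 4 in HepG2 and 1 in mouse liver. The epithelial median with HeyA8 shRNA4 (-0.22) was 0.016 without a filter, 0.036 with the stricter filter and -0.45 with the mean of all probe sets, and the mesenchymal median in HepG2 (-0.33) was -0.044 without a filter. The fewer or added dim genes follow from each filter's construction, and the cause of the other shifts was not tested.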
